A study of Chlamydomonas reinhardtii with 21 samples.

Results

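In the green alga Chlamydomonas reinhardtii, 110 genes had lower transcript levels in a second batch of UVM11 mutant cultures than in a first batch. The choice of these genes also limited how far certain strains of one batch could differ, so their closeness is not a result. The genes were found by a fixed arithmetic rule among 15425 of the 17741 gene models of the deposited expression table, those with a mean above 0.1 FPKM (fragments scaled by transcript length and by mapped fragments) over the 21 cultures. For each strain and batch the mean of log2(FPKM + 0.1) was taken. The batch difference, called E, was the mean of UVM11 in batch 2 minus that of UVM11 in batch 1. The genes were selected on measured values: a gene was chosen by the rule when its E was below -1 and the strain means differed by less than 1 for UVM4 minus Elow47, for UVM11 minus Elow47, for UVM11-C1 minus UVM11 and for UVM11-C9 minus UVM11. Because these 5 differences chose the genes, they are described here without a test.

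Chlamydomonas is a unicellular alga with a single large chloroplast, and it can grow on light and on acetate as a carbon source at the same time. It is known for silencing introduced genes through its chromatin, and sirtuins are histone deacetylases that remove acetyl groups at the expense of NAD+. Steady-state mRNA levels of an alga also follow the light, nutrients and density of a culture, so a strain grown on separate occasions can serve to see which genes vary between occasions.

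The progenitor of the mutants was Elow47. It was made by bringing CRY1-1, for resistance to emetine, and ARG7, for growth without arginine, into the cw15 arg7 strain CC-4350. UV light then gave UVM4 and UVM11, and each carries an altered allele of the sirtuin gene SRTA (srta-2 in UVM4, srta-1 in UVM11). UVM11-C1 and UVM11-C9 are UVM11 lines to which the unmutated SRTA coding sequence was added back with a FLAG tag. The construct also carried a gene for resistance to hygromycin, on which both lines had been kept. All strains descend from Elow47 and share its inserted genes. Each is a single line, so a property of that line and an effect of its SRTA allele cannot be told apart. Batch 1 comprised 4 cultures each of Elow47, UVM4 and UVM11, and batch 2 comprised UVM11, UVM11-C1 and UVM11-C9 with 3 cultures per strain. All were liquid cultures in acetate-containing TAP medium under continuous light, harvested in the logarithmic phase, and the libraries were made from poly(A) RNA. UVM11 was grown again in batch 2 as a control for batch effects, and it is the one strain present in both. For every other strain, strain and batch cannot be told apart. Replicates of UVM11 are numbered 1 to 4 in batch 1 and 5 to 7 in batch 2, and the cultures of UVM11-C1, whose columns carry no number that ties them to a label, are called a, b and c.

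The column sums ranged from 542464 to 604568 FPKM in batch 1 and from 548358 to 617687 FPKM in batch 2. The total number of reads per library is unknown, and FPKM values give only the relative depth, which was 0.827 to 1.26 in batch 1 and 0.886 to 1.14 in batch 2. The lowest correlation between libraries of one group was 0.992, and at most 0.0123% of the values were identical between any pair of libraries. One library stood apart for the genes described here. In Elow47 replicate 3, 82 of the 110 genes lay below their Elow47 mean (median deviation -0.14 on the log2 scale), whereas in Elow47 replicate 4 only 15 of 110 did (median deviation 0.13). When Elow47 replicate 3 was left out, 112 genes met the rule, and 109 of them were among the 110. SRTA (Cre10.g462200) was not among the genes. Its mean was 3.51 ± 0.23 FPKM (SD, n = 4) in UVM11 of batch 1 and 2.80 ± 0.14 FPKM (SD, n = 3) in UVM11 of batch 2, and with its added copy it reached 5.19 ± 0.40 FPKM (SD, n = 3) in UVM11-C1 and 3.48 ± 0.17 FPKM (SD, n = 3) in UVM11-C9. For none of the 110 genes did the sources used here give a symbol or a function, so the genes are given by their identifiers, by their positions in the RefSeq table of Chlamydomonas reinhardtii v5.5, and by their values. The genes that mark a green photosynthetic cell were not checked here.

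Of the 15425 genes, 177 had an E below -1, a background share of 1.15%. The strain conditions kept 110 of these, 0.713% of the genes, and removed 67. A gene could fail more than one of them. Among the 177 genes, 28 differed by 1 or more between UVM4 and Elow47, 38 between UVM11 and Elow47, 25 between UVM11-C1 and UVM11, and 41 between UVM11-C9 and UVM11. In the other direction the changes were more frequent. An E above 1 was found for 664 genes, and 417 genes met the mirrored rule, which asks for a higher level in batch 2 under the same strain conditions.

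Most of the 110 genes were lowered by little more than the rule demanded. Their median E was -1.16, against -0.0043 over all 15425 genes. E was above -1.5 for 96 genes (87.3%), between -2 and -1.5 for 5, between -3 and -2 for 5, and below -3 for 4. The genes nearest to the limit show how little separates the sides of it. Inside it were Cre16.g689050 (E of -1.012), Cre08.g370550 (-1.012) and Cre08.g358700 (-1.003), and outside it, with every strain condition met, were Cre10.g453782 (-0.9993), Cre07.g331450 (-0.9984) and Cre08.g369650 (-0.9982). Cre08.g369650, which was not chosen, had 3.44, 3.83, 4.22 and 3.53 FPKM in UVM11 of batch 1 and 2.05, 1.66 and 1.79 FPKM in batch 2. Cre16.g689050, which was, had 18.6, 19.7, 20.4 and 21.3 FPKM in UVM11 of batch 1 and 9.11, 10.3 and 10.1 FPKM in batch 2. In both genes the UVM11 cultures of the batches were fully apart.

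**Figure D1:**
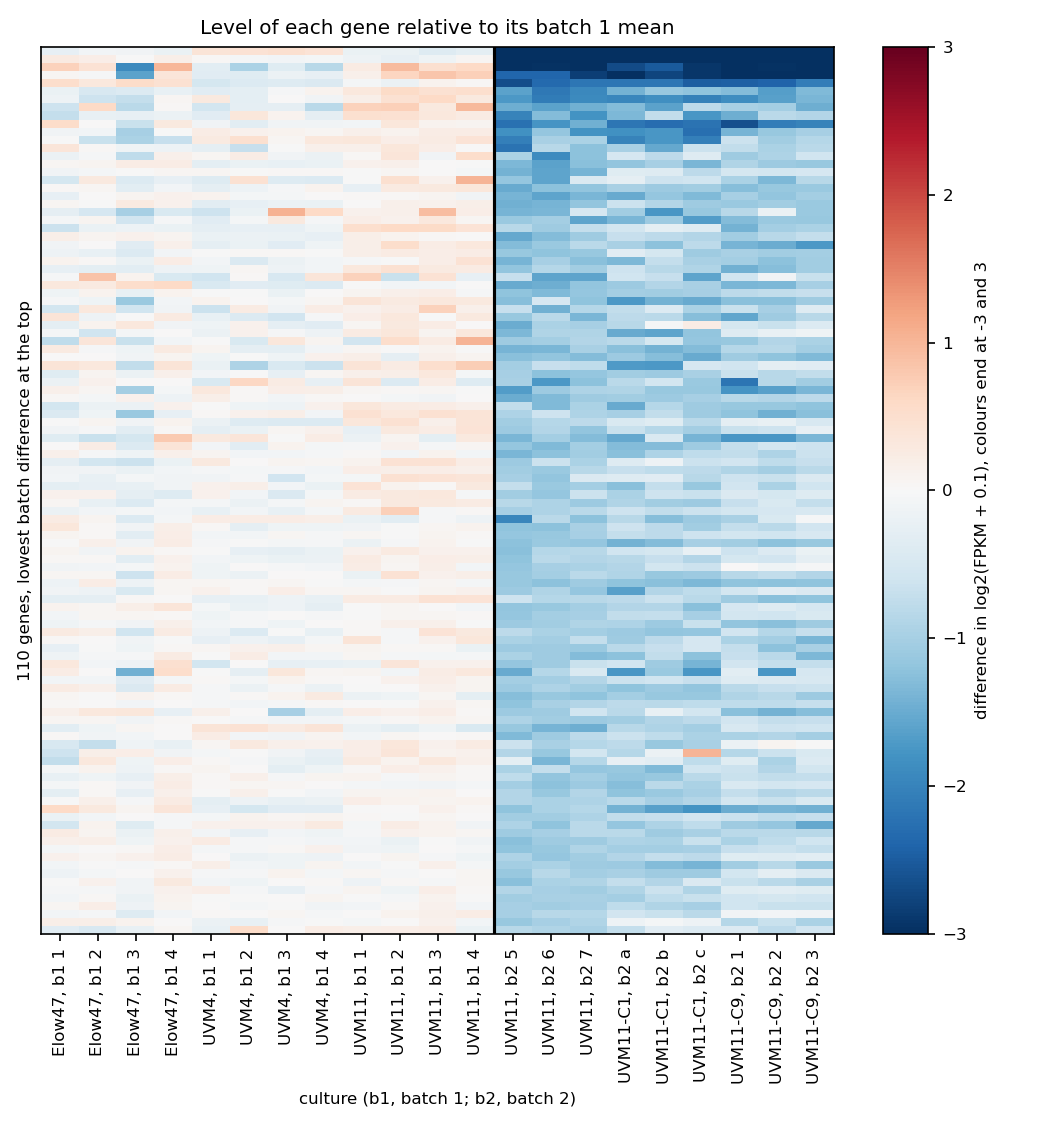
Level of each of the 110 genes (rows, lowest E at the top) in each of the 21 cultures (columns), as the difference in log2(FPKM + 0.1) from the gene's mean over batch 1, with the colours ending at -3 and 3. The 9 columns of batch 2 to the right of the line are almost uniformly blue, the strongest blue stands in the top 4 rows, and Elow47 replicate 3 is the batch 1 column with the most blue.

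The lowest values of E belonged to a pair of neighbouring genes on chromosome 1 whose transcripts were present in every culture of batch 1 and nearly or fully undetected in every culture of batch 2. Cre01.g042300 (chromosome 1, 5932743 to 5941730) had 4.32, 4.84, 4.79 and 4.46 FPKM in Elow47, 6.82, 6.94, 7.22 and 6.92 FPKM in UVM4, while UVM11 of batch 1 had 4.48, 4.49, 3.92 and 4.15 FPKM. It was listed at 0 in 8 of the 9 libraries of batch 2 and at 0.0059 FPKM in UVM11 replicate 6. Its E was -5.42, a value that depends on the pseudocount of 0.1 added before the logarithm was taken. Within batch 1 UVM4 had the highest level in all 4 cultures, with no overlap with Elow47 or UVM11.

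Cre01.g042352 (chromosome 1, 5943530 to 5963670) is the next gene, 1799 bases further on, with no annotated gene between. Its level was 1.91 to 2.33 FPKM in Elow47, 1.80 to 1.96 FPKM in UVM4 while UVM11 of batch 1 had 1.60 to 1.98 FPKM. It was listed at 0 in 6 of the 9 libraries of batch 2, and the highest value, 0.0069 FPKM, was in UVM11-C9 replicate 2. Its E was -4.21. No culture of either batch came near the range of the other batch.

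The loss of signal reached past the pair. After Cre01.g042402, whose mean of 0.039 FPKM was under the limit of 0.1, follows Cre01.g042450 (chromosome 1, 5967911 to 5982416), named here after its values were seen. It had 7.12 to 9.92 FPKM in the 12 cultures of batch 1. UVM11 of batch 2 had 0.593 to 0.707 FPKM, UVM11-C1 0.394 to 0.5098 FPKM and UVM11-C9 0.0999 to 0.1596 FPKM. Its E was -3.39, but it was not chosen because UVM11-C9 lay a further 1.75 below UVM11 on the log2 scale. The next gene above the limit, Cre01.g042550, had an E of -0.15, with 37.2 to 48.4 FPKM in batch 1 and 34.1 to 39.6 FPKM in batch 2. On the other side, Cre01.g042250 had an E of -0.74, with 1.35 to 1.87 FPKM in batch 1 and 0.713 to 1.48 FPKM in batch 2. The strongly lowered stretch thus held 3 measured genes, flanked by genes that were lowered by less. A missing stretch of DNA in the UVM11 cells of batch 2 and their relatives and an absence of transcripts from intact genes cannot be told apart from mRNA levels.

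**Figure D2:**
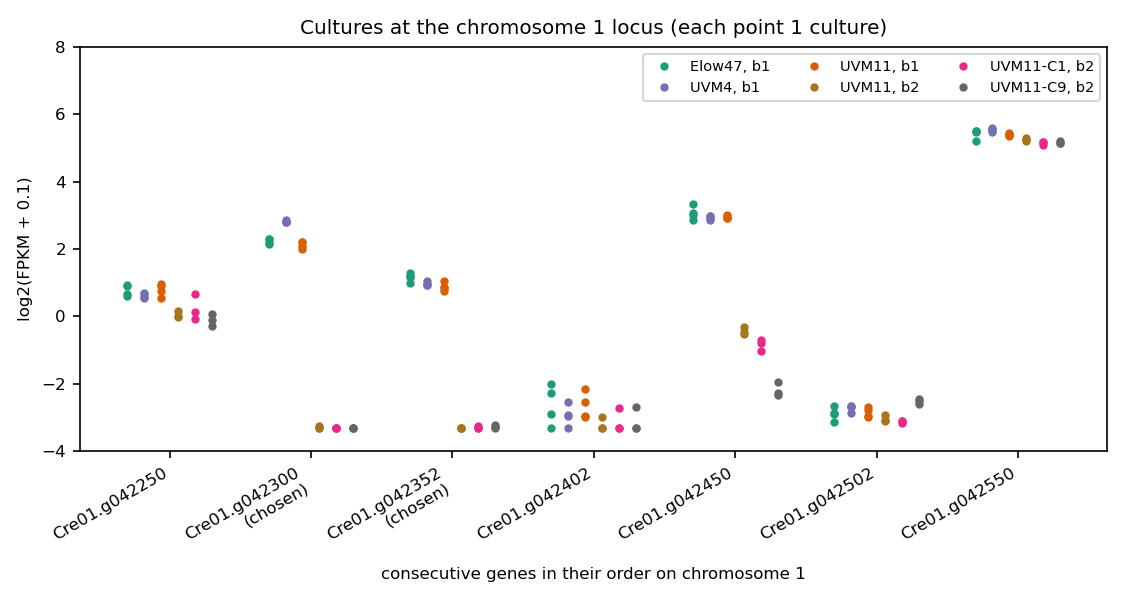
Values of log2(FPKM + 0.1) in each culture (1 point each, coloured by strain and batch) for 7 consecutive genes of chromosome 1, in their order, with no distances drawn. The batch 2 cultures of both chosen genes sit at the floor set by the pseudocount, those of Cre01.g042450 lie in between, and Cre01.g042550 at the right end differs little.

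A further 2 genes had an E below -3. For Cre16.g652200 (chromosome 16, 1401332 to 1408423) UVM11 had 12.4, 20.2, 14.4 and 15.7 FPKM in batch 1 and 1.14, 1.25 and 1.15 FPKM in batch 2, an E of -3.60. UVM11-C1 had 1.52, 1.74 and 1.30 FPKM and UVM11-C9 had 1.14, 1.25 and 1.19 FPKM, so the 9 cultures of batch 2 were close together. The batch 1 cultures were not. UVM4 had 8.37, 5.32, 8.01 and 5.80 FPKM, and Elow47 had 16.8, 14.2 and 20.9 FPKM in replicates 1, 2 and 4 but 2.68 FPKM in replicate 3. Even that lowest culture lay above all of batch 2. Within-group SD on the log2 scale was 0.63, the highest among the 110 genes.

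Cre13.g603550 (chromosome 13, 4469470 to 4474932; E of -3.11) showed the same Elow47 culture low. Elow47 had 6.92, 6.48 and 8.56 FPKM in replicates 1, 2 and 4 and 2.12 FPKM in replicate 3. UVM4 had 5.24, 5.10, 5.90 and 5.56 FPKM, and UVM11 had 7.40, 10.4, 11.99 and 11.02 FPKM. In batch 2 UVM11 had 1.21, 1.19 and 0.857 FPKM, UVM11-C1 had 0.738, 0.900 and 0.796 FPKM, and UVM11-C9 had 0.634, 0.660 and 0.648 FPKM. No culture of batch 2 reached the lowest of batch 1.

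The genes with an E between -3 and -2 covered a wide range of levels. Cre08.g364100 (chromosome 8, 1384904 to 1391629; E of -2.37) was among the most abundant of the 110 transcripts. Elow47 had 94.1 to 111 FPKM, UVM4 52.9 to 58.0 FPKM and UVM11 of batch 1 67.8 to 82.1 FPKM, and these 3 groups did not overlap. The groups of batch 2, which are UVM11 and lines derived from it, overlapped, with UVM11 at 11.9 to 16.9 FPKM, UVM11-C1 at 13.6 to 17.0 FPKM and UVM11-C9 at 13.8 to 17.9 FPKM. The mean of UVM11 was 5.14-fold higher in batch 1 than in batch 2.

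Cre11.g477550 (chromosome 11, 2830682 to 2832544; E of -2.36) had 3.94, 4.69, 4.34 and 4.45 FPKM in UVM11 of batch 1 and 0.962, 0.630 and 0.737 FPKM in UVM11 of batch 2. Here UVM11 marked both ends of the range. Elow47 and UVM4 had 2.22 to 3.35 FPKM in batch 1, and UVM11-C1 and UVM11-C9 had 0.924 to 1.37 FPKM in batch 2, so the difference across the other strains was smaller, at -1.11. The remaining genes of this range had low levels. Cre08.g366450 (E of -2.30) had 0.571 to 0.789 FPKM in UVM11 of batch 1 and 0.0376 to 0.0779 FPKM in batch 2, Cre07.g352000 (-2.17) had 0.274 to 0.5003 and 0 to 0.0123 FPKM, and Cre07.g326700 (-2.08) had 1.17 to 1.40 and 0.167 to 0.333 FPKM. For Cre07.g352000 the strains outside UVM11 overlapped across the batches, since the lowest cultures of Elow47 and UVM4 had 0.0746 FPKM and the highest of UVM11-C1 had 0.0766 FPKM.

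Cre07.g346050 (chromosome 7, 4866866 to 4871395; E of -1.94) was the second strongly lowered gene of high level. Its values were 94.3, 64.8, 40.5 and 78.8 FPKM in Elow47, 60.4, 51.5, 59.6 and 60.4 FPKM in UVM4, while UVM11 of batch 1 had 61.4, 82.1, 69.6 and 68.7 FPKM. UVM11 of batch 2 had 13.6, 18.8 and 23.5 FPKM, UVM11-C1 had 14.3, 13.1 and 13.8 FPKM, and UVM11-C9 had 10.3, 15.2 and 15.9 FPKM. All cultures of batch 1 were above all of batch 2, and Elow47 replicate 3 was again the lowest of batch 1. Cre14.g610100 (E of -1.77) had 9.69 to 10.5 FPKM in UVM11 of batch 1 and 2.49 to 3.94 FPKM in batch 2, with UVM11-C1 at 1.78 to 2.62 and UVM11-C9 at 3.37 to 4.42 FPKM. Cre16.g688600 (E of -1.62) had 0.524 to 0.623 FPKM in UVM11 of batch 1 against 0.0318, 0.179 and 0.181 FPKM in batch 2.

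**Figure D3:**
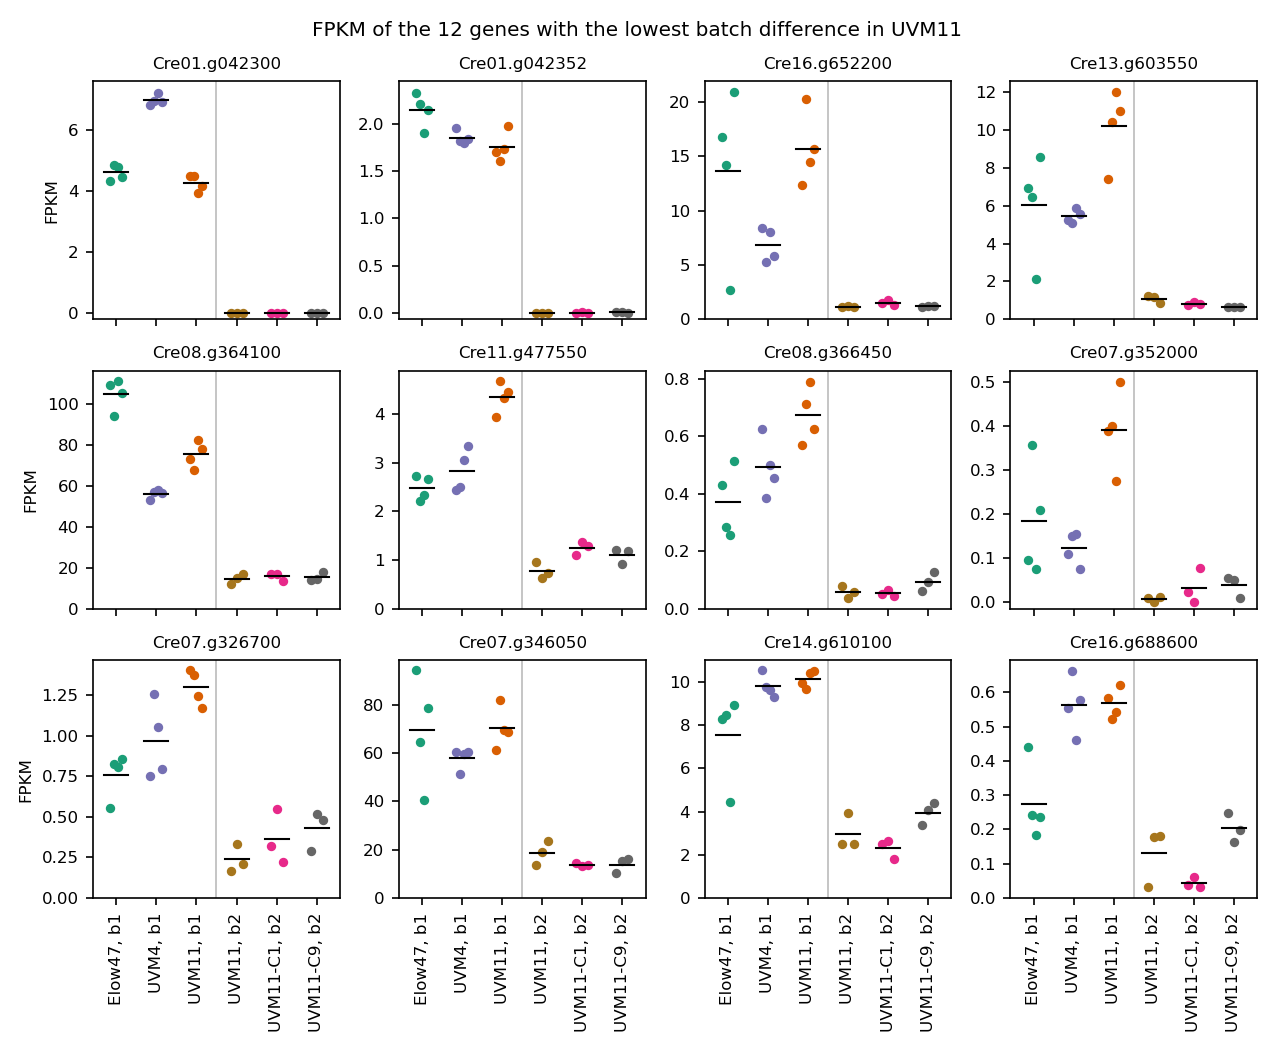
FPKM in each culture (1 point each) by strain and batch (b1, batch 1; b2, batch 2) for the 12 genes with the lowest E, each panel with its own linear axis; the black line is the group mean and the grey line separates the batches. In 10 panels every batch 1 point is above every batch 2 point, the exceptions being Cre07.g352000 and Cre16.g688600.

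Of the 8 genes with the highest means, Cre08.g364100 and Cre07.g346050 are described above, and the other 6 had an E between -1.37 and -1.04. Cre09.g405750, with the highest mean (72.9 FPKM), had 99.6, 97.6, 99.2 and 94.6 FPKM in UVM11 of batch 1 and 29.9, 45.0 and 50.4 FPKM in batch 2 (E of -1.26). UVM4 had 98.5 to 120 FPKM, and UVM11-C1 and UVM11-C9 had 27.9 to 50.9 FPKM. Elow47 replicate 3, at 47.5 FPKM against 91.4 to 106 FPKM in the other Elow47 cultures, lay within the batch 2 range.

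Cre13.g588700 (mean of 61.9 FPKM) had 80.8 to 90.01 FPKM in UVM11 of batch 1 and 35.7 to 45.4 FPKM in batch 2 (E of -1.04). In batch 1 Elow47 was the highest strain, at 87.1 to 123 FPKM, and UVM4 the lowest, at 56.5 to 69.2 FPKM. Cre07.g338451 (mean of 56.4 FPKM) had 79.3 to 82.7 FPKM in UVM11 of batch 1 and 30.4 to 31.7 FPKM in batch 2 (E of -1.37), but UVM11-C1 culture a, at 55.7 FPKM, exceeded the lowest Elow47 culture, at 52.5 FPKM.

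Cre12.g507400, Cre14.g630859 and Cre14.g625650 showed the ordinary size of the change at high precision. UVM11 of Cre12.g507400 had 51.0 to 58.4 FPKM in batch 1 and 25.03 to 27.7 FPKM in batch 2 (E of -1.07), with UVM11-C1 at 31.7 to 33.7 and UVM11-C9 at 36.6 to 38.5 FPKM. For Cre14.g630859 the 12 cultures of batch 1 all lay between 47.3 and 54.2 FPKM, and the 9 of batch 2 between 21.4 and 30.7 FPKM (E of -1.07). Cre14.g625650 had 40.4 to 46.5 FPKM in UVM11 of batch 1 and 14.8 to 18.7 FPKM in batch 2 (E of -1.35). In all 3 genes each batch 1 culture was above each batch 2 culture.

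Over the set, levels were low to moderate. The median of the gene means was 2.19 FPKM (quartiles 1.05 and 6.23 FPKM) against 5.61 FPKM over all 15425 genes. A mean below 1 FPKM was found for 27 of 110 genes (24.5%, against 12.4% of all genes) and a mean above 10 FPKM for 18 (16.4%, against 34% of all genes). Over the 417 genes of the mirrored rule these shares were 28.1% and 26.6%, and the median was 3.1 FPKM. The means include the batch 2 cultures, whose low values entered the choice. The 10 genes that were listed at 0 in at least 1 library of batch 2 had no zero in batch 1. This follows largely from the choice, which asks for a higher level in UVM11 of batch 1 and limits how far Elow47 and UVM4 can lie from it. Nothing is read from it. A lower FPKM value can stand for fewer cells that express a gene or for less mRNA of it in each cell, and these cannot be told apart in whole cultures. The spread between cultures of one group was somewhat wider than usual, with a median SD of 0.158 on the log2 scale against 0.116 over all genes and 0.257 over the 417 genes of the mirrored rule.

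The strains of batch 2 other than UVM11 were also lower than the strains of batch 1 other than UVM11, a comparison of different strains in which strain and batch cannot be told apart. The median level of the 110 genes on the log2(FPKM + 0.1) scale was 1.43 in Elow47, 1.44 in UVM4 and, for UVM11 of batch 1, 1.62. In batch 2 it was 0.34 for UVM11, 0.50 for UVM11-C1 and 0.64 for UVM11-C9. Over all genes the median level lay between 2.48 and 2.49 in every group. The mean of UVM11-C1 and UVM11-C9 minus the mean of Elow47 and UVM4 had a median of -0.84 over the 110 genes (range -5.85 to -0.22) against -0.015 over all genes. All 110 genes had a negative value, while the median over all genes was itself slightly negative. A value below -1 was found for 31 of the 110, a share to be set beside 0.985% of all genes. These numbers are not independent of the choice, since the rule's limits keep that difference below 1.5.

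In 73 of the 110 genes every culture of batch 1 was above every culture of batch 2, which held for 8.26% of all genes. In the remaining 37 genes the batches overlapped in at least 1 culture. Without Elow47 replicate 3, left out after its values were seen, 82 genes had no overlap, against 9.34% of all genes. Among UVM11 cultures alone there was no overlap in any of the 110 genes, against 29.5% of all genes, which follows largely from the choice. Comparing Elow47 and UVM4 with UVM11-C1 and UVM11-C9, 73 genes had no overlap, against 12.2% of all genes. By group means, each of the 3 groups of batch 1 was above each of the 3 groups of batch 2 in 102 genes, against 23.9% of all genes. The rule fixes part of each of these counts, so nothing is read from their excess.

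The choice also placed UVM11 at the extremes. UVM11 was the highest strain of batch 1 in 68 genes and the lowest of batch 2 in 65. Shares over all genes were not taken for these counts. The median difference was -0.013 for UVM4 minus Elow47, with 51 genes above 0 (46.4%, against 49.6% of all genes). For UVM11 minus Elow47 the median was 0.13, with 80 genes above 0 (72.7%, against 47.4% of all genes). In batch 2 the median was 0.16 for UVM11-C1 minus UVM11, with 77 genes above 0 (70%, against 50.2% of all genes). For UVM11-C9 minus UVM11 it was 0.30, with 90 genes above 0 (81.8%, against 49.2% of all genes). Each of these 4 differences was limited to less than 1 by the rule, and the last 3 share UVM11 cultures with E, so their directions are given as a description.

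**Figure D4:**
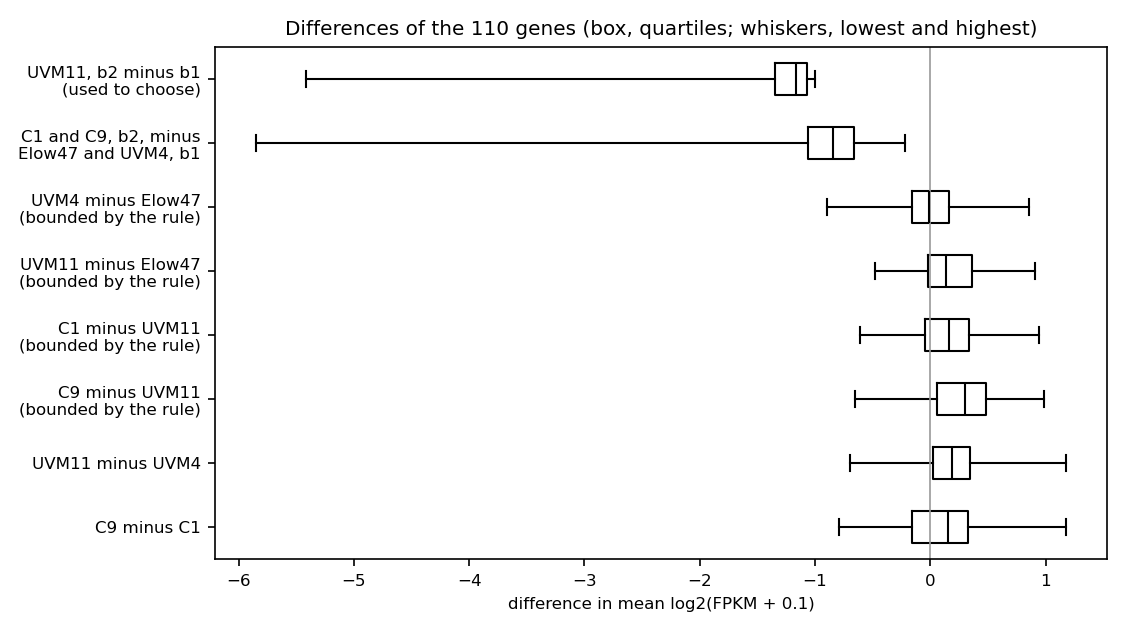
Distribution over the 110 genes of 8 differences between group means of log2(FPKM + 0.1); boxes span the quartiles, the line in each is the median and whiskers reach the lowest and highest gene. The difference used to choose the genes has a median of -1.16, the difference between the other strains of the batches one of -0.84, and the strain differences within a batch centre between -0.013 and 0.30.

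Differences between strains of one batch that the rule did not name were examined with limma on all 15425 genes, in which a call required an adjusted p below 0.01 (Benjamini-Hochberg) and a log2 fold change of more than 1 in size. The rule's limits keep these differences below 2. The difference between UVM11 and UVM4 of batch 1 also rests on the UVM11 cultures that set E, which favours genes that were high in them, so its counts are given as a description and nothing is read from them. Of the 110 genes 1 was called, beside a background of 0.856%. It was Cre07.g352000, with 0.388, 0.399, 0.274 and 0.5003 FPKM in UVM11 and 0.109, 0.150, 0.154 and 0.0746 FPKM in UVM4. Its limma adjusted p was 0.00999, close to the limit of 0.01. In 14 of the 21 fits that left out a library, none of the 110 genes was called. Without Elow47 replicate 3, 3 genes were called, namely Cre07.g352000, Cre16.g652200 and Cre17.g719325. On the adjusted p alone 13 genes passed, beside 4.75% of all genes, and 39 had an unadjusted p below 0.05, beside 23.2%. Cre01.g042300 and Cre01.g013000 were the 2 of the 13 that were lower in UVM11. Cre01.g013000 had 4.57, 4.19, 4.71 and 3.78 FPKM in UVM11 and 6.80, 6.99, 6.24 and 6.77 FPKM in UVM4, with no overlap.

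Between UVM11-C9 and UVM11-C1 of batch 2, 2 of the 110 genes were called, both higher in UVM11-C9, beside a background of 3.67%. The rule bounded the difference of each of these strains from UVM11, and so also their difference from each other. The counts of this comparison are therefore a description too, and nothing is read from them or from their distance to the background. Cre04.g228150 (chromosome 4, 3517834 to 3526569) had 0.967, 1.09 and 1.16 FPKM in UVM11-C9 and 0.386, 0.362 and 0.513 FPKM in UVM11-C1 (1.18 on the log2 scale, SE 0.16, limma adjusted p = 7.2e-06). Its UVM11-C9 cultures were above the lowest culture of batch 1, which was Elow47 replicate 2 at 0.810 FPKM. Cre16.g688600 had 0.249, 0.164 and 0.199 FPKM in UVM11-C9 and 0.0366, 0.0626 and 0.0314 FPKM in UVM11-C1 (1.08, SE 0.26, limma adjusted p = 0.0019). On the adjusted p alone 26 genes passed, 20 higher and 6 lower in UVM11-C9, beside 34.9% of all genes, and 50 had an unadjusted p below 0.05, beside 54.5%.

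The lower genes of that comparison included Cre08.g370550, Cre16.g658000 and Cre14.g630775. Cre08.g370550 had 3.24, 3.69 and 3.01 FPKM in UVM11-C9 and 5.38, 5.76 and 5.39 FPKM in UVM11-C1 (-0.72, SE 0.083, limma adjusted p = 9.1e-07). Its UVM11-C1 values lay within the range of batch 1, where UVM4 had 5.06 to 5.88 FPKM. Cre16.g658000 had 2.34, 3.06 and 3.25 FPKM in UVM11-C9 and 4.28, 5.19 and 4.82 FPKM in UVM11-C1 (-0.71, SE 0.12, limma adjusted p = 0.0001). It too overlapped in UVM11-C1 with batch 1, since Elow47 replicate 1 had 4.01 FPKM. Cre14.g630775 had 0.528, 0.460 and 0.520 FPKM in UVM11-C9 and 0.757, 1.19 and 0.935 FPKM in UVM11-C1 (-0.80, SE 0.22, limma adjusted p = 0.0061), and UVM4 replicate 3, at 0.660 FPKM, lay below all of UVM11-C1. In all 3 genes at least 1 culture of UVM11-C1 thus exceeded at least 1 culture of batch 1. The other genes lower in UVM11-C9 at a limma adjusted p below 0.01 were Cre03.g191300, Cre14.g625650 and Cre16.g684715. In those, every culture of batch 1 was above every culture of batch 2.

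The 110 genes were spread over all 17 chromosomes. Chromosome 15 held 7 of them among its 172 genes (4.07%), and the other chromosomes held between 0.362% and 1.47%. The 7 genes lay between 37376 and 1362200 of that chromosome, and their E ran from -1.32 in Cre15.g637150 to -1.03 in Cre15.g637249. Cre15.g634600 (37376 to 50823) and Cre15.g634701 (67757 to 84735) had 1 gene between. The first had 2.36 to 3.42 FPKM in batch 1 and 1.28 to 2.10 FPKM in batch 2, and the second had 1.68 to 2.76 and 0.872 to 1.35 FPKM, without overlap in either. The median E of all 172 genes of chromosome 15 was -0.11, against -0.0043 over all genes, so the chromosome as a whole stood slightly lower.

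Of the 110 genes, 6 had another of the set as the next gene (5.45%, against 1.25% of all genes with a position), and 17 had one within 5 genes (15.5%, against 5.99%). The 3 adjacent pairs were the pair on chromosome 1 described above, Cre07.g351950 with Cre07.g352000, 350 bases apart, and Cre16.g688600 with Cre16.g688633, 154 bases apart. The pair on chromosome 7 was low throughout: Cre07.g351950 had 0.0559 to 0.428 FPKM in batch 1 and 0.0167 to 0.0829 FPKM in batch 2, with overlap. Cre16.g688633 had 0.0680 to 0.594 FPKM in batch 1 and 0 to 0.191 FPKM in batch 2, also with overlap. The counting was not stated to use the strand, so reads of close neighbours may have been assigned to either gene.

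A further pair on chromosome 1, Cre01.g010650 (1963405 to 1975736) and Cre01.g010750 (1979645 to 1987306), had 1 gene between and clean separation. Cre01.g010650 had 1.69 to 2.25 FPKM in batch 1 and 0.679 to 0.855 FPKM in batch 2. Cre01.g010750 had 6.04 to 6.81 FPKM in batch 1 and 2.11 to 2.397 FPKM in UVM11 of batch 2. UVM11-C1 and UVM11-C9 had 3.70 to 4.98 FPKM. Their log2 differences from UVM11, which the rule used, were 0.94 and 0.95, just under its limit of 1. In Cre01.g010650 the same differences were -0.13 and -0.065. One of the 110 genes, Cre10.g462100 (chromosome 10, 5911343 to 5924364), lay 11228 bases before SRTA with 1 gene between. Batch 1 had 1.91 to 2.61 FPKM, UVM11 of batch 2 1.05 to 1.19 FPKM, UVM11-C1 1.16 to 1.42 FPKM and UVM11-C9 1.75 to 1.82 FPKM. UVM11-C9 exceeded UVM11-C1 in all 3 cultures (0.48, SE 0.11, limma adjusted p = 0.0012).

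The genes were long. The median gene span, from start to end with introns, was 6667 bases against 4538.5 bases over all genes and 4292 bases over the 417 genes of the mirrored rule. A span above 10000 bases was found for 29 of the 110 genes (26.4%), for 11.3% of all genes and for 8.15% of those of the mirrored rule. The batch difference of all genes moved with span. When the genes were divided into 10 equal classes by span, the median E fell from 0.11 in the shortest to -0.17 in the longest, and 27 of the 110 genes were in the longest class against 6 in the shortest. When each gene's E was taken relative to the median of its span class, an alternative chosen after seeing the data, 90 genes met the rule, of which 75 were among the 110.

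**Figure D5:**
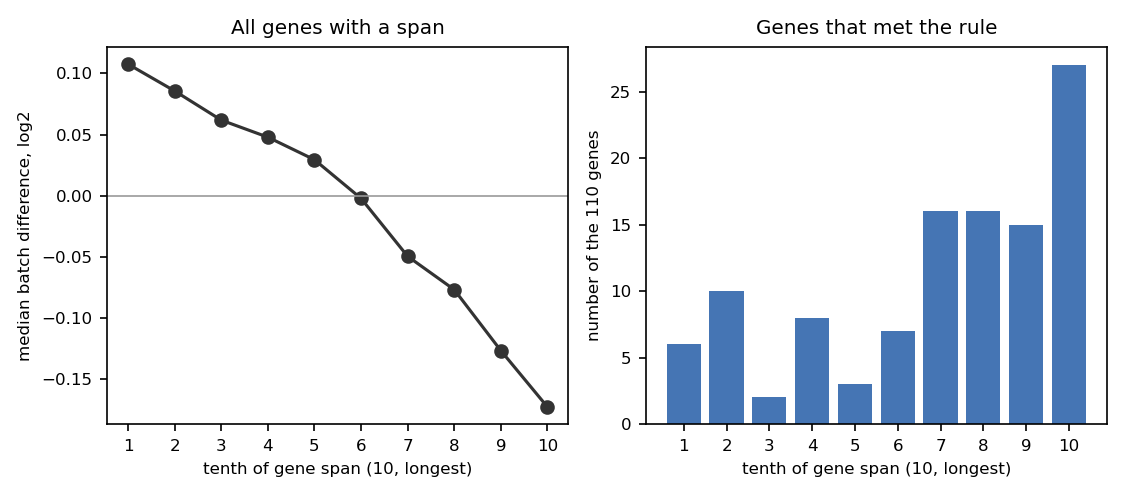
Left, median E (log2, UVM11 of batch 2 minus batch 1) of all genes in each of 10 equal classes of gene span, from the shortest to the longest; right, the number of the 110 genes in each class. The median E falls from 0.11 to -0.17, and the longest class holds 27 of the 110 genes.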

How the data were processed

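RNA-seq was performed on poly(A) RNA of 21 cultures. Reads were aligned with STAR 2.4.0j (maximal intron of 3000 bases) to genome version 5 with gene models 5.5, and the authors computed FPKM per gene and replicate with Cuffdiff 2.2.1; these deposited FPKM values were used as they are. The labels and the study's methods name different library kits, and use of the strand in counting is not given in the sources used here. Library totals were not used. Relative depth came from 713 low genes, 97.8% of whose values were within 0.1 of a whole read.

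Genes with a mean FPKM above 0.1 (15425) were analysed as log2(FPKM + 0.1), a scale that understates changes of low genes. The members, lists and tests were chosen with earlier results of these data known. Genes were named by rule: the 12 lowest in E, the 8 of highest mean, 3 on each side of the limit, and SRTA; others were named after their values were seen. UVM11 was compared with UVM4 and UVM11-C9 with UVM11-C1 by limma 3.58.1 (R 4.3.3) with a mean-variance trend, all 6 groups in 1 fit, two-sided and Benjamini-Hochberg adjusted over all 15425 genes. Nothing in the labels beyond separate cultures defines the replicates, so p-values measure the spread between those cultures. Positions came from the RefSeq table of v5.5, to which 17738 of 17741 identifiers and all 110 genes matched. It gave no symbols or descriptions, so the intended lists of genes by annotation and of marker genes could not be made, and no sequences were used. The limma code was tested on simulated data. Alternatives were other pseudocounts and filters, quantile scaling, median centring, group medians, leaving out each library, and other fits. Descriptive work used Python 3.11.15, pandas 2.3.3 and matplotlib 3.10.9.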

Additional observations from a re-analysis of the deposited data

Results flagged for a closer look

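Of 78 groups of 4 cultures examined (75 of the FPKM of named genes and 3 of the median level of the 110 genes), 7 held a culture far from the others, all 7 for named genes, where chance gives about 1 in 20. Elow47 replicate 3 was the low culture for Cre14.g610100, at 4.45 FPKM against 8.30 to 8.93 FPKM in the other Elow47 cultures, and for Cre12.g507400, at 40.4 FPKM against 47.7 to 48.4 FPKM. Elow47 replicate 1 was low for Cre07.g326700, at 0.553 FPKM against 0.809 to 0.854 FPKM, and for Cre10.g453782, a gene just outside the rule, at 0.196 FPKM against 0.307 to 0.328 FPKM. Elow47 replicate 4 was high for Cre08.g369650, also just outside the rule, at 4.16 FPKM against 3.64 to 3.67 FPKM. UVM4 replicate 2 was low for Cre07.g346050, at 51.5 FPKM against 59.6 to 60.4 FPKM. UVM11 replicate 4 was low for Cre08.g358700, at 0.347 FPKM against 0.479 to 0.501 FPKM.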

How the results depend on the processing

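The number of genes that met the rule was 39 with a pseudocount of 1 (34 among the 110), 169 with quantile scaling (108 among the 110), 136 with a pseudocount of 0.01 (100), 109 with group medians (95), and 108 to 136 when 1 library was left out, the highest without UVM11 replicate 7 of batch 2. The median E of the 110 genes was -0.82 with a pseudocount of 1 and -1.21 to -1.15 when a library was left out. Of 668 values of E of the named genes under alternatives, 30 moved by more than 1 SD and 0 turned direction. Leaving out a library of a strain other than UVM11 cannot change E, so many of these values were fixed in advance. Most named genes were also chosen for a low E, so nothing is read from these counts. Against 1 gene called between UVM11 and UVM4, there were 0 with a pseudocount of 1, with a pseudocount of 0.01 and with median centring, 2 with quantile scaling or an adjusted p below 0.05, 3 with the compared groups alone, and 0 to 3 when a library was left out. Against 2 genes called between UVM11-C9 and UVM11-C1, there were 0 with a pseudocount of 1, 1 with a mean above 1 FPKM, with quantile scaling or with the compared groups alone, and 2 to 3 when a library was left out. The causes were not tested. In a fit of UVM11 and UVM4 alone, 3 of the 110 genes were called with the replicate number as a block and 3 without it. Over all genes that fit called 137 with the block and 141 without it. Deviations of same-numbered cultures of UVM11 and UVM4 correlated at -0.0169 to 0.0523, and 2 of 4 correlated best with their own number. Whether same-numbered cultures share more than a number cannot be told from these values. No paired analysis was made for UVM11-C9 and UVM11-C1, because the columns of UVM11-C1 carry no number that ties them to a label. Alternatives for lists of genes by annotation were not run. The number of reads per library is unknown, so no counting interval can be given for the low values.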
